A study of Arabidopsis thaliana with 18 samples.

Results

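The plastid-encoded genes of Arabidopsis thaliana were followed through far-red-induced de-etiolation of dark-grown seedlings. Members were the array features assigned to 1 gene whose lower-case symbol marks a plastid gene for a photosystem (psa, psb), the cytochrome b6f complex (pet), the NADH dehydrogenase-like complex (ndh), the plastid RNA polymerase (rpo) or an ycf protein, together with rbcL, accD, clpP, matK, cemA and ccsA. This gave 48 features for 48 distinct genes, of 22746 features tested on the array. All 48 lie on the plastid chromosome in the reference gene table, which lists 85 protein-coding plastid genes. Features of ycf1, ycf2 and ndhB, 3 in all, were each assigned to 2 gene copies and were not members.

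The series compared 2 genotypes, both in the Columbia background: the double mutant pif4pif5, which lacks the phytochrome-interacting transcription factors PIF4 and PIF5, and the wild type. All seeds had 3 days of cold, germinated after red light (3 h, 50 µmol/m2/s) and then stayed dark for 3 days. Each genotype was sampled without further light, after far-red light for 1 h (0.5 µmol/m2/s) and after far-red light for 24 h (5 µmol/m2/s). The 6 groups were thus pif4pif5 in darkness, at 1 h and at 24 h, and the wild type in darkness, at 1 h and at 24 h, with 3 arrays (replicates A, B and C) in each. Duration and fluence rate differ together, and seedlings given 24 h of light were also older than the dark ones, so light dose and age cannot be told apart at 24 h. RNA came from whole seedlings, so a change in the mix of cells and a change in plastid RNA per cell cannot be told apart either. PIF4 and PIF5 had no feature assigned to them alone, and the genotype labels were not checked on the mutated genes. The labels do not say whether replicates were separate cultures, so p-values cover only the differences among these arrays, and those could be technical.

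Plastids keep a small genome of their own, which encodes core subunits of the photosynthetic complexes and part of the machinery that expresses them, while the remaining subunits are encoded in the nucleus and imported. Plastid genes are transcribed by a bacterial-type polymerase, whose core subunits are the plastid rpo genes, and by phage-type polymerases encoded in the nucleus. The rpoB operon and accD are known as genes read mainly by the phage-type enzymes, and most photosystem genes as genes read mainly by the bacterial-type enzyme. In darkness plastids stay as etioplasts, and light perceived by phytochrome A starts their conversion towards chloroplasts under far-red light. Many plastid genes are co-transcribed in operons and processed afterwards.

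All levels are log2 signals, and each difference subtracts the group named second from the one named first on that scale, from 1 limma model over the 18 arrays with its standard error (SE). A gene was called when its p, adjusted by Benjamini-Hochberg over all 22746 features, was under 0.05. Array medians lay between 5.60 and 5.88 except for 1 wild-type dark array (replicate C, 6.16). Replicates correlated at 0.967 to 0.997 over all features. The RNA polymerase gene rpoB and the NDH gene ndhF were among the dimmest features (the lowest 25% by mean level), so a missing difference there says little.

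Across the 48 genes the plainest pattern was a single array. On replicate A of pif4pif5 at 1 h of far-red light, the 48 genes had a mean level of 6.90, against 8.83 and 8.45 on replicates B and C of the same group and 8.27 to 9.02 over the other 17 arrays. Of the 48 genes, 46 were below the mean of their fellow replicates there, 35 by at least 1 and 20 by at least 2 log2 units. The array held the lowest of the 18 values for 37 of the 48. Next came replicate C of pif4pif5 at 24 h, with 8 genes lower by at least 1.

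**Figure D1:**
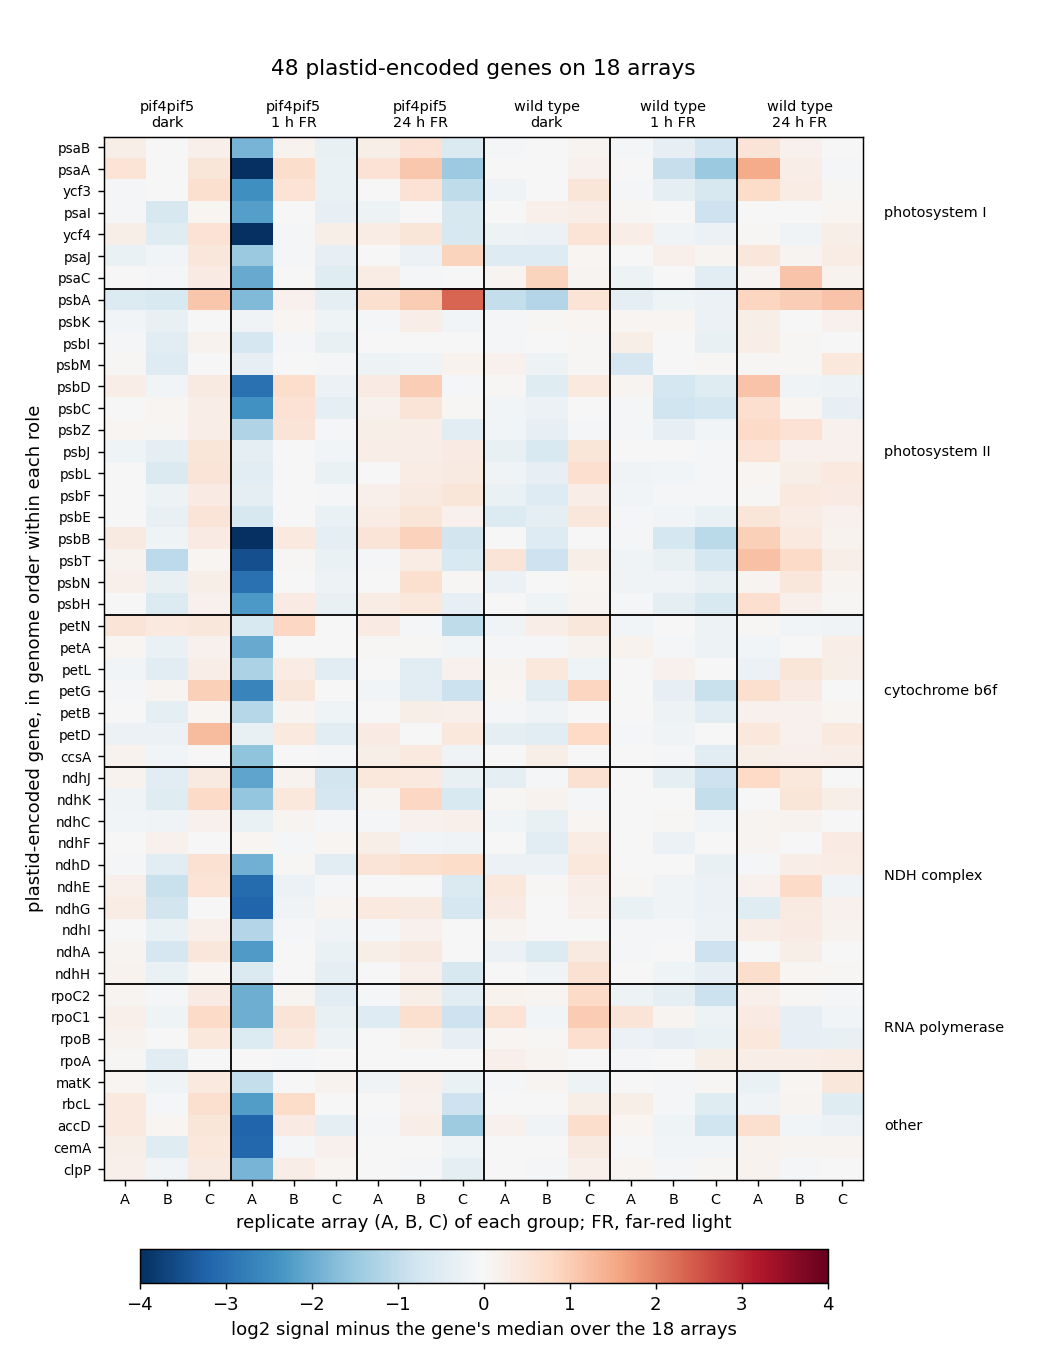
Log2 signal of the 48 plastid-encoded genes (rows, by role and in genome order) on the 18 arrays (columns, replicates A, B and C of each group), as the difference from each gene's median over all arrays, with the colour scale ending at -4 and 4. The column of replicate A of pif4pif5 at 1 h is the lowest for 37 of 48 genes.

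On this array the median deviations of plastid transcripts lay far below those of the other gene classes compared. The 21 other plastid genes measured, which encode ribosomal proteins and ATP synthase subunits, had a median deviation of -1.33 from their fellow replicates, and the 48 members one of -1.75. Mitochondrial genes, taken as 22 features of 15 genes with nad, cox, ccb or matR symbols, had a median deviation of -0.07. Of these 22 features, 1 lay at least 1 below. Nuclear-encoded subunits of the photosynthetic complexes, 8 in all, deviated by 0.05 to 0.46, all upward. They also all deviated upward on replicate B of the same group (0.03 to 0.35), while on replicate C their median deviation was -0.42. Over all features the median deviation was 0.02, 0.576% lay at least 1 below, and the array correlated with its fellow replicates at 0.990 and 0.992. Of the 131 features that lay at least 1 below, 47 were among the 69 plastid genes and 84 were not. What set this array apart was not tested.

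The drop was uneven along the plastid genome. The photosystem I assembly gene ycf4 stood at 5.45 on replicate A, against 9.68 and 9.98 on replicates B and C. The photosystem I core gene psaA stood at 4.80, against 9.50 and 8.54, and psbB, which encodes the CP47 antenna of photosystem II, at 5.31, against 9.79 and 9.04. These genes, chosen after their values were seen, were the 3 with the largest drops: -4.38 for ycf4, -4.22 for psaA and -4.10 for psbB. At the other end, the psbE, psbF, psbL and psbJ genes, which encode cytochrome b559 and small photosystem II subunits from 1 transcript, differed by -0.50 to -0.29. The neighbours psbK and psbI differed by -0.10 and -0.50, and rpoA and ndhF lay within 0.06 above their fellow replicates.

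Neighbouring genes were compared over 10 runs of members that are adjacent on the plastid chromosome and known to be co-transcribed, 35 genes in all, a grouping drawn up after the data had been seen. In the run psaI, ycf4, cemA and petA all 4 genes were lower, with deviations of -4.38 to -2.03. In the run psbD, psbC and psbZ, which encodes the D2 protein, the CP43 antenna and a small subunit of photosystem II, the deviations were -3.21 to -1.42. In the run psbB, psbT, psbH, petB and petD the deviations spread from -4.10 to -0.27. The smallest, -0.27, was that of petD, which had a low median of 4.02 over the 18 arrays and little room to drop. The next smallest was -1.11 for petB, so members of 1 run did not always drop alike. Over all 18 arrays, within-group deviations of 2 genes in the same run had a median correlation of 0.838 (55 pairs), against 0.650 for the other 1073 pairs. Without replicate A of pif4pif5 at 1 h the medians were 0.688 and 0.446 over 17 arrays. These correlations are descriptions: all genes share the same arrays, and array-wide shifts enter every pair.

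**Figure D2:**
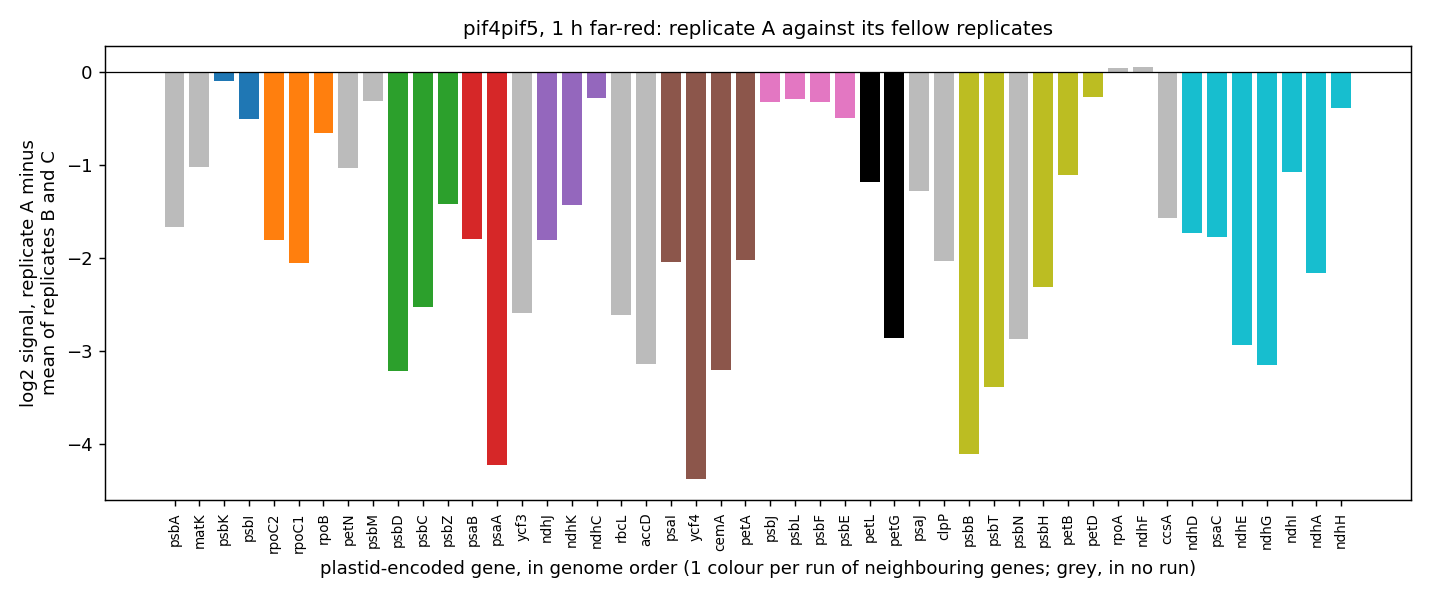
Log2 signal on replicate A of pif4pif5 at 1 h of far-red light minus the mean of replicates B and C, for the 48 plastid-encoded genes in genome order, with 1 colour for each of 10 runs of neighbouring co-transcribed genes and grey for genes in no run. Bars range from -4.38 for ycf4 to 0.06 for ndhF, and 46 of 48 point downward.

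This array widened the error of the comparisons. For a difference between 2 groups the median SE over the 48 genes was 0.355, against 0.177 over all features. With the array left out it was 0.241 between groups that do not include pif4pif5 at 1 h and 0.270 where they do. Leaving it out was decided after the data had been seen, and results that rest on it are given both ways.

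After 24 h of far-red light none of the 48 genes passed the test against darkness in either genotype. In pif4pif5, limma called 0 of 48, while 11.5% of all features were called. There 2 of 48 had an unadjusted p under 0.05, beside 23.7% of all features. The count of calls was also 0 of 48 in the wild type, while 11.3% of all features were called. In that genotype 3 of 48 had an unadjusted p under 0.05, beside 25.4% of all features. The median difference of the 48 genes was 0.07 in pif4pif5 and 0.18 in the wild type, beside -0.04 and -0.12 over all features in the same genotypes. Of the 48, 26 were above 0 in pif4pif5 and 39 in the wild type, beside 44.2% and 32.6% of all features. With all arrays shifted to 1 median the count in pif4pif5 was 37 of 48, and in the wild type 40 of 48. Under that shift the median over all features in this comparison, here and below, was 0.11 in pif4pif5 and -0.02 in the wild type. The sign of the median of the 48 genes in pif4pif5, as deposited, rested on single arrays. It was -0.11, with 15 genes above 0, without replicate B of the dark group. Without replicates A and B of the 24 h group, each left out in turn, it was -0.02 and -0.01. Without replicate C of the 24 h group it was 0.12, with 34 above 0. The wild-type median stayed at 0.11 to 0.27 when single arrays of its groups were left out.

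The largest differences belonged to psbA, which encodes D1, the reaction centre protein of photosystem II that turns over rapidly in light. In pif4pif5 psbA stood at 7.19, 7.15 and 8.87 in darkness, at 5.98, 7.90 and 7.39 after 1 h and at 8.37, 8.76 and 10.08 after 24 h. Wild-type psbA stood at 6.78, 6.58 and 8.28 in darkness, at 7.38, 7.58 and 7.51 after 1 h and at 8.59, 8.72 and 8.88 after 24 h. The 24 h arrays of the wild type lay above all its dark and 1 h arrays, whereas in pif4pif5 1 dark array, replicate C, lay within the 24 h range. Replicate C was also the highest of the wild-type dark arrays and the highest array in 4 of the 6 groups.

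Against darkness, psbA differed at 24 h by 1.34 (SE 0.53, adjusted p = 0.122, 2.53-fold) in pif4pif5 and by 1.52 (SE 0.53, adjusted p = 0.0768, 2.87-fold) in the wild type. Over the alternative settings the adjusted p ran between 0.0257 and 0.385 in pif4pif5, where 2 of 13 settings passed, and between 0.0148 and 0.198 in the wild type, where 3 of 13 passed. The settings that passed left out replicate C of the dark group concerned, blocked on the replicate letter, or, in the wild type, shifted all arrays to 1 median. The genotypes' changes in psbA differed by -0.18 (95% interval -1.76 to 1.40), a width that leaves room for a difference either way.

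**Figure D3:**
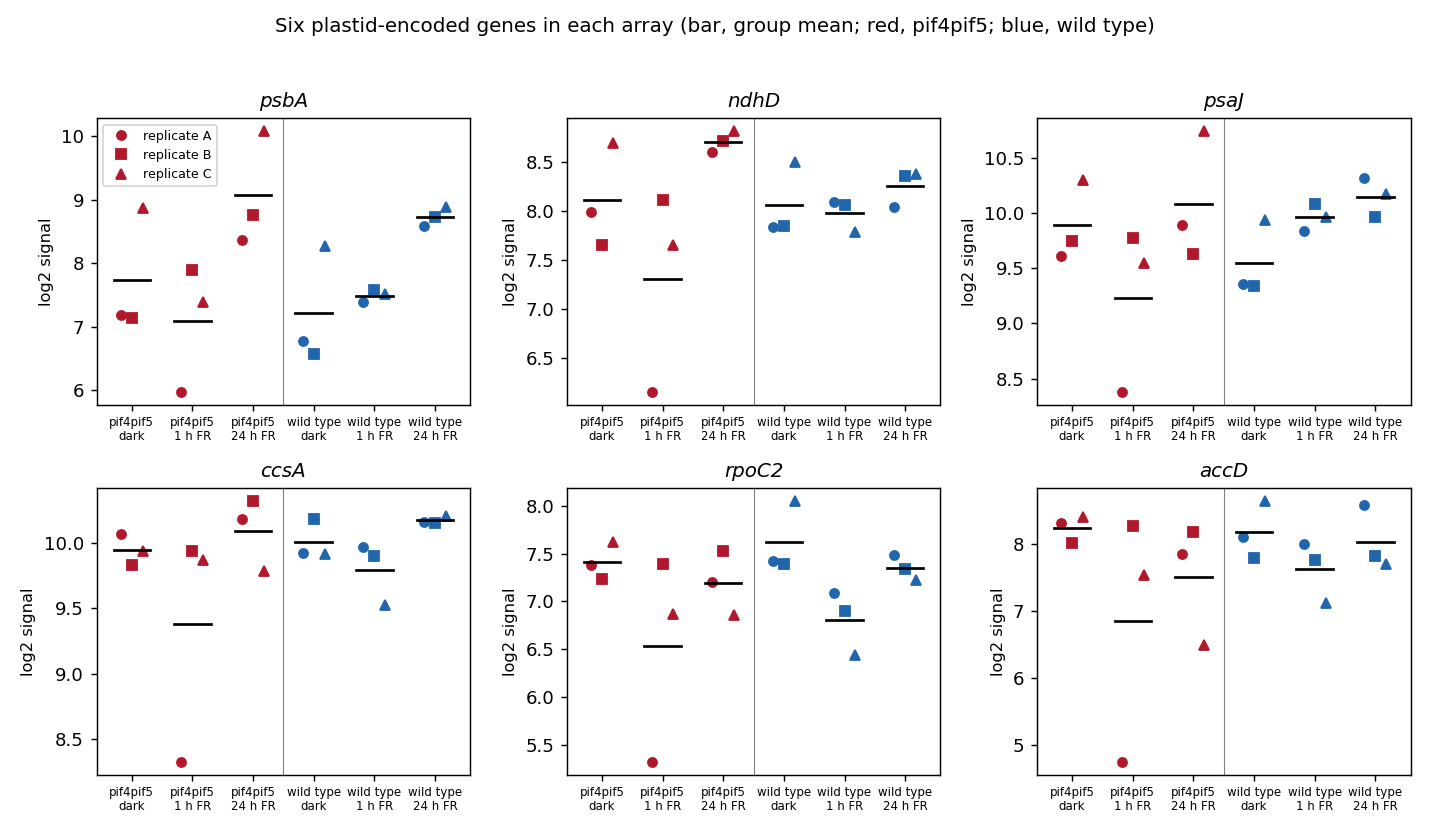
Log2 signal of psbA, ndhD, psaJ, ccsA, rpoC2 and accD on each array (circle, square and triangle for replicates A, B and C; red for pif4pif5, blue for the wild type; bar for the group mean; each panel has its own vertical scale). The psbA values at 24 h lie above those at 1 h in both genotypes, and replicate A of pif4pif5 at 1 h is the lowest array in all 6 panels.

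Among the photosystem II genes as a whole, differences between 24 h and darkness lay mostly above 0 without passing the test. In pif4pif5 14 of 15 were above 0 (-0.10 for psbZ to 1.34 for psbA, median 0.17), and in the wild type 15 of 15 (0.11 for psbK to 1.52 for psbA, median 0.34). Quantile normalization gave 14 of 15 and 15 of 15, and arrays shifted to 1 median 15 of 15 in both genotypes. Wild-type psbZ, for a small subunit near CP43, differed by 0.68 (SE 0.30, adjusted p = 0.160). Its 24 h arrays read 10.64, 10.43 and 10.02, all above the dark arrays at 9.76, 9.53 and 9.77. Without replicate A of pif4pif5 at 1 h, an array that is in neither group, psbZ passed (SE 0.20, adjusted p = 0.0411, with 0.0411 to 0.347 over all alternatives).

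The photosystem I genes include the assembly factors ycf3 and ycf4. As deposited, most lay below 0 in pif4pif5 and above 0 in the wild type. In pif4pif5 1 of 7 was above 0 (-0.33 to 0.20, median -0.07). After quantile normalization 4 of 7 were, and with arrays shifted to 1 median 5 of 7, so the sign there depends on the scaling. Of the same 7 genes, 6 were above 0 in the wild type under each scaling (-0.14 to 0.61, median 0.22 as deposited). The gene with the highest difference in both genotypes was psaJ, for a small subunit, while ycf3 had the lowest in pif4pif5 (-0.33). psaJ read 9.89, 9.63 and 10.74 in pif4pif5 at 24 h, against 9.62, 9.75 and 10.31 in darkness. Wild-type psaJ read 10.32, 9.96 and 10.17 at 24 h, against 9.36, 9.34 and 9.94 in darkness. The wild-type groups did not overlap, by a narrow margin between replicate B at 24 h and replicate C in darkness, and the pif4pif5 groups did. The differences were 0.20 (SE 0.31, adjusted p = 0.779) in pif4pif5 and 0.61 (SE 0.31, adjusted p = 0.239) in the wild type.

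The genes of the cytochrome b6f group and of the NDH complex, which carries cyclic electron flow around photosystem I, gave no call. Of the 7 cytochrome b6f genes, 3 were above 0 in pif4pif5 (-0.80 for petG to 0.23 for petB) and 6 in the wild type (-0.25 for petN to 0.32 for petD). With arrays shifted to 1 median these counts were 5 and 6, and after quantile normalization 3 and 5. ccsA, needed to attach haem to c-type cytochromes, read 10.18, 10.32 and 9.78 in pif4pif5 at 24 h, against 10.07, 9.83 and 9.94 in darkness. Wild-type ccsA read 10.16, 10.15 and 10.21 at 24 h, against 9.92, 10.18 and 9.91 in darkness. Both pairs of groups overlapped. Of the 10 NDH genes, 7 were above 0 in pif4pif5 (-0.14 for ndhE to 0.60 for ndhD) and 9 in the wild type (-0.16 for ndhG to 0.36 for ndhJ). In pif4pif5 it was 10 of 10 with arrays shifted to 1 median and 8 of 10 after quantile normalization, and 9 of 10 in the wild type both times.

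At 24 h against darkness, differences below 0 were found in genes known for transcription by the phage-type polymerases, and in others too. All 4 of rpoB, rpoC1, rpoC2 and accD were below 0 in both genotypes and under each of the 3 scalings, and none passed the test. Of the other 44 members 26 were above 0 in pif4pif5 and 39 in the wild type, beside 44.2% and 32.6% of all features, and no test sets these 4 genes apart. In pif4pif5 the differences at 24 h were -0.26 for rpoB (SE 0.24), -0.50 for rpoC1 (SE 0.48), -0.22 for rpoC2 (SE 0.36) and -0.73 for accD (SE 0.61). In the wild type they were -0.34, -0.52, -0.27 and -0.14 for the same genes. None of these had an unadjusted p under 0.05, the lowest being 0.171 for rpoB in the wild type. The 3 rpo genes share 1 transcript, so they are not separate observations. rpoA, which lies in a different operon among ribosomal protein genes, differed by 0.13 in pif4pif5 and 0.16 in the wild type. Against 1 h instead of darkness, rpoB, rpoC1, rpoC2 and accD were above 0 at 24 h in 3 of 4 cases in the wild type. In pif4pif5 it was 4 of 4, but without replicate A at 1 h rpoC1 (-0.35) and accD (-0.40) were below 0.

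rpoC2, for the beta'' subunit of the polymerase, read 7.20, 7.52 and 6.86 in pif4pif5 at 24 h, against 7.38, 7.23 and 7.63 in darkness. Wild-type rpoC2 read 7.48, 7.34 and 7.23 at 24 h, against 7.42, 7.39 and 8.05 in darkness. accD, a subunit of the plastid acetyl-CoA carboxylase for fatty acid synthesis, read 7.84, 8.17 and 6.49 in pif4pif5 at 24 h, against 8.30, 8.01 and 8.39 in darkness. Wild-type accD read 8.57, 7.82 and 7.70 at 24 h, against 8.09, 7.79 and 8.63 in darkness. For both genes the 24 h and dark groups overlapped in each genotype. rbcL, the large subunit of Rubisco, had differences of -0.53 (SE 0.49) in pif4pif5 and -0.23 (SE 0.49) in the wild type. The others, cemA of the inner envelope, the protease subunit clpP and the intron maturase matK, had 24 h differences of -0.30 to -0.11 in pif4pif5 and -0.04 to 0.13 in the wild type.

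The measured nuclear-encoded partners of these complexes all passed the test at 24 h against darkness in both genotypes. The 8 subunits with a feature of their own were PSAE-1 and PSAN of photosystem I, PSBW and PSBY of photosystem II, AT2G26500 of the cytochrome b6f complex, ATPC1 of the ATP synthase, and NdhL and NdhN of the NDH complex. They were 2 of 12 listed for photosystem I and 2 of 11 for photosystem II. For cytochrome b6f, plastocyanin and the ATP synthase they were 2 of 7, and for NDH 2 of 4. The rest had no feature assigned to them alone and were not examined. All 8 rose at 24 h against darkness, by 0.81 to 1.72 in pif4pif5 (median 1.39) and by 0.92 to 2.28 in the wild type (median 1.56). PSAN, a lumenal photosystem I subunit, read 12.08, 11.93 and 12.16 in pif4pif5 at 24 h, against 10.26, 10.34 and 10.41 in darkness. Wild-type PSAN read 11.93, 11.92 and 12.03 at 24 h, against 9.66, 9.70 and 9.68 in darkness. For 31 of the 48 plastid genes in pif4pif5 and 23 in the wild type, the upper 95% limit of the difference lay under the smallest rise among the 8 nuclear subunits. Without replicate A of pif4pif5 at 1 h these numbers were 40 and 35. The smallest rise was that of AT2G26500, at 0.81 (95% interval 0.51 to 1.11) in pif4pif5 and 0.92 (0.62 to 1.22) in the wild type. The upper limits were set against this estimate and not against its interval. The same share over all features was not counted, so these numbers do not set plastid genes apart from other features. For the remaining plastid genes a rise as large as that of a nuclear subunit was within the interval, and the difference between the gene classes was not tested. The labelling, of a kind that primes on poly(A) tails, need not measure both classes alike. Among nuclear partners of the other members, RCA, the Rubisco activase, rose by 1.13 in pif4pif5 and by 1.56 in the wild type. The protease subunit CLPP4 passed in neither genotype, with 0.28 and 0.48 in the same genotypes.

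**Figure D4:**
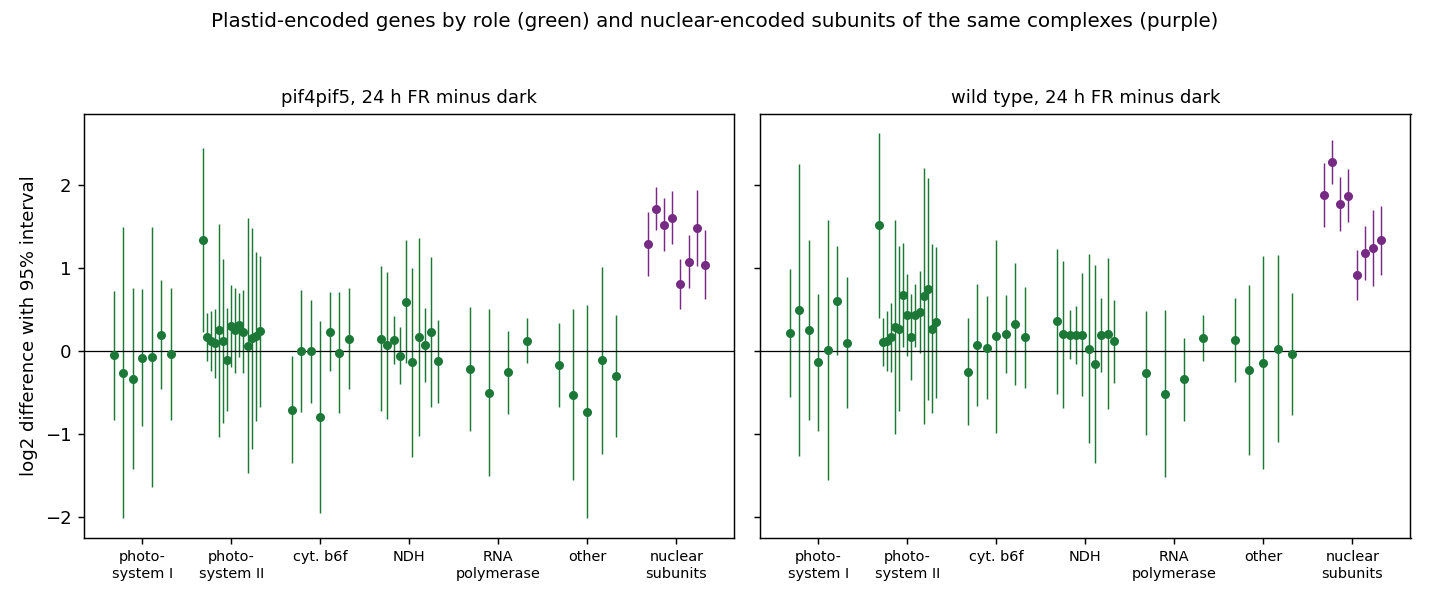
Log2 difference between 24 h of far-red light and darkness in pif4pif5 (left) and in the wild type (right), with 95% intervals, for the 48 plastid-encoded genes by role (green) and for 8 nuclear-encoded subunits of the same complexes and the ATP synthase (purple). The nuclear subunits lie at 0.81 to 2.28, and most plastid genes have intervals that include 0, with psbA as the highest plastid gene in both panels.

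Against 1 h of far-red light, 24 h gave the only calls among the 48 genes, both in pif4pif5. psbA rose by 1.98 (SE 0.53, adjusted p = 0.0197, 3.95-fold) and ndhD, a membrane subunit of the NDH complex, by 1.40 (SE 0.35, adjusted p = 0.0133, 2.65-fold). That is 2 of 48 genes, while 11.4% of all features were called in this comparison. Of the 48, 14 had an unadjusted p under 0.05, as did 24% of all features. ndhD read 8.61, 8.71 and 8.82 in pif4pif5 at 24 h, against 6.16, 8.11 and 7.65 at 1 h. For both genes all 24 h arrays lay above all 1 h arrays, and replicate A was the lowest at 1 h.

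Both calls rested on replicate A of pif4pif5 at 1 h. Without it psbA differed by 1.43 (SE 0.53, adjusted p = 0.131) and ndhD by 0.83 (SE 0.26, adjusted p = 0.0671), and 0 of 48 genes were called, with 3 at an unadjusted p under 0.05. Over the alternatives the adjusted p ran from 0.00215 to 0.131 for psbA and from 0.00265 to 0.0671 for ndhD. The psbA call was also lost without replicate C of pif4pif5 at 24 h (1.48, adjusted p = 0.108) and with an intensity trend and robust prior (adjusted p = 0.0583), and the ndhD call with a fit to these 2 groups alone (adjusted p = 0.0615). The median difference of the 48 genes in pif4pif5 was 0.60 with the array and 0.07 without it, beside 0.05 over all features each time, and the genes above 0 numbered 46 with it and 28 without it.

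In the wild type, where no array stood apart in this way, 45 of 48 genes were above 0 at 24 h against 1 h (median 0.36, beside 0.02 over all features), and 45 to 46 were under the other scalings. limma called 0 of 48, while 7.21% of all features were called. An unadjusted p under 0.05 was found for 2 of 48, beside 18.3% of all features. Replicate A of pif4pif5 at 1 h is in neither group but enters the estimate of the spread. Without it limma still called 0 of 48, with 17 at an unadjusted p under 0.05. The share of all features at that p was not counted without this array. psbA differed by 1.24 (SE 0.53, adjusted p = 0.207), and psaA by 1.36 (SE 0.84, adjusted p = 0.453), the largest difference. psaA, a core subunit of photosystem I, read 10.29, 9.06 and 8.75 at 24 h, against 8.79, 7.90 and 7.34 at 1 h, and the groups overlapped. With a fit to these 2 groups alone, psbA, psbB, psbE, psbT, psbZ and ycf3 passed, 6 genes in all.

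**Figure D5:**
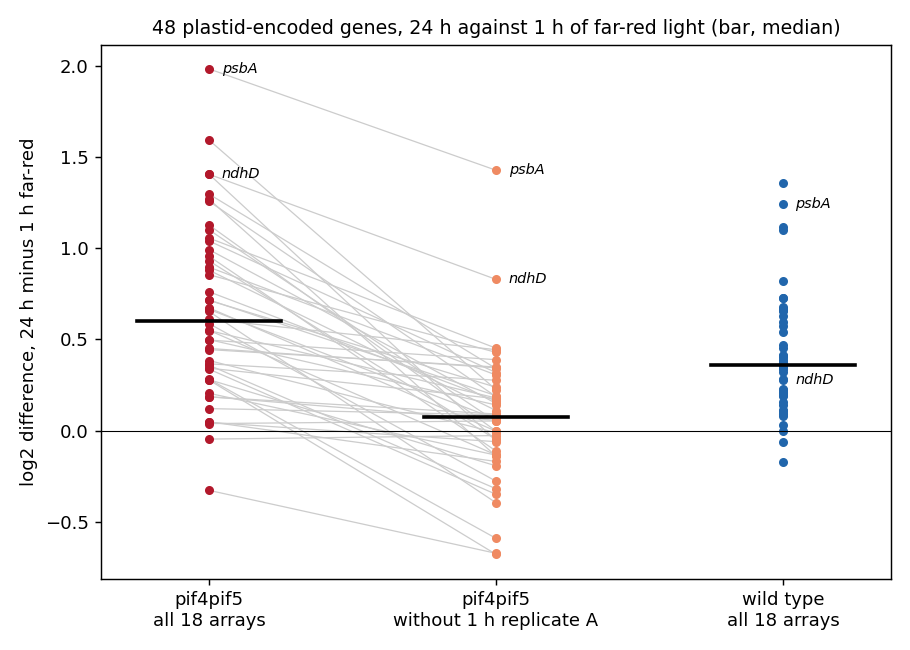
Log2 difference, 24 h minus 1 h of far-red light, for the 48 plastid-encoded genes in pif4pif5 with all 18 arrays, in pif4pif5 without replicate A of the 1 h group (grey lines join the same gene), and in the wild type, with the median as a bar. The median in pif4pif5 is 0.60 with the array and 0.07 without it, and in the wild type 0.36.

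The count of genes whose groups did not overlap differed between the genotypes in another way than the calls: it was above the share of all features in the wild type, where no gene was called. At 24 h all 3 arrays lay above all 3 dark arrays for 0 of 48 genes in pif4pif5, where 11.2% of all features did so, and for 8 of 48 (16.7%) in the wild type, where 5.81% did. Against 1 h they did so for 10 of 48 (20.8%) in pif4pif5, beside 17.9% of all features, and for 24 of 48 (50%) in the wild type, beside 16.1%. The 24 wild-type genes included all 4 of the psbE run and psbB, psbT, psbH, petB and petD of the psbB run. Since members of a run vary together, the 24 genes are fewer independent observations than their number.

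After 1 h of far-red light at the lower fluence rate no member passed the test. In pif4pif5 limma called 0 of 48 against darkness, while 0.699% of all features were called. There 7 of 48 had an unadjusted p under 0.05, beside 5.78% of all features. The count of calls was again 0 of 48 in the wild type, while 0.787% of all features were called. In that genotype 2 of 48 had an unadjusted p under 0.05, beside 11.3% of all features. The median in pif4pif5 was -0.65, with 3 genes above 0, and without replicate A it was -0.06, with 16 above 0, a range of -0.34 to 0.15 and 0 of 48 at an unadjusted p under 0.05. In the wild type the median was -0.17 with 8 genes above 0, beside -0.12 and 25.4% over all features, and 16 genes were above 0 with arrays shifted to 1 median. The lowest unadjusted p values among the 48 genes in the wild type were those of rpoB, which differed by -0.55 (SE 0.24, adjusted p = 0.407) and is a dim feature, and of rpoC2. rpoC2 read 7.09, 6.90 and 6.44 at 1 h, against 7.42, 7.39 and 8.05 in darkness, and differed by -0.81 (SE 0.36, adjusted p = 0.412).

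Loss of PIF4 and PIF5 was not followed by a called difference in any of the 48 genes. In darkness 0 of 48 were called between pif4pif5 and the wild type, beside 0.0264% of all features. An unadjusted p under 0.05 was found for 0 of 48, beside 7.27% of all features. Differences in darkness ran from -0.37 to 0.52. Their median was 0.06, and it ran from -0.14 to 0.19 when single arrays were left out. At 1 h 0 of 48 were called, beside 0.0264% of all features, and 1 had an unadjusted p under 0.05, beside 4.06%. The median there was -0.37 with 4 genes above 0, and 0.12 with 36 above 0 once replicate A of pif4pif5 was left out. At 24 h 0 of 48 were called, beside 0.365% of all features, and 0 had an unadjusted p under 0.05, beside 8.27%. Differences there ran from -0.85 for psbT to 0.45 for ndhD, with a median of -0.15 and 9 genes above 0. Over all features the median was -0.003, and 49.4% were above 0. Under quantile normalization and a shift to 1 median, 12 and 15 of the 48 were above 0. The median of the 48 ran from -0.20 to -0.02 when single arrays of these groups were left out. It was -0.02, with 20 genes above 0, without replicate C of pif4pif5 at 24 h.

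ndhD was the member highest in pif4pif5 relative to the wild type at 24 h. Its 24 h arrays read 8.61, 8.71 and 8.82 in pif4pif5 and 8.04, 8.36 and 8.39 in the wild type, without overlap, and the difference was 0.45 (SE 0.35, adjusted p = 0.819). It was the 1 member whose groups lay apart upward, where 6.75% of all features did, and 5 members lay apart downward (psbI, psaI, cemA, petG and rpoA), where 6.41% did. In darkness it read 7.99, 7.66 and 8.70 in pif4pif5 and 7.84, 7.85 and 8.50 in the wild type, and the groups overlapped.

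The test of whether the response to light differed between the genotypes called no member either. For 1 h it called 0 of 48 and 0% of all features. An unadjusted p under 0.05 was found for 1 of 48, psaJ at -1.07 with SE 0.44, beside 1.93% of all features. Without replicate A of pif4pif5 none of the 48 had an unadjusted p under 0.05 for 1 h, and the median of the interaction was 0.16, against -0.41 with it. For 24 h the test called 0 of 48 and 0.0132% of all features. An unadjusted p under 0.05 was found for 0 of 48, beside 5.88% of all features. The median of the 24 h interaction was -0.13, beside 0.04 over all features, and its sign rested on single arrays. It was 0.03, with 26 genes above 0, without replicate C of the pif4pif5 dark group. Without replicate B of that group it was -0.30, with 2 above 0. The 95% intervals of these interactions had a median width of 2.11, so only large differences between the genotypes' responses could have been detected.

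The 21 other plastid genes gave 1 call over all 11 comparisons, atpA, a subunit of the ATP synthase, which rose by 1.55 (SE 0.46, adjusted p = 0.0356) between 24 h and 1 h in pif4pif5 and was not called without replicate A of that genotype at 1 h. With this array left out, 3 neighbouring genes of the ATP synthase passed between 24 h and 1 h in the wild type: atpA at 0.88 (SE 0.24, adjusted p = 0.0373), atpF at 1.03 (SE 0.27, adjusted p = 0.0244) and atpH at 0.90 (SE 0.24, adjusted p = 0.0293). Over all 21 genes the median difference between 24 h and darkness was -0.04 in pif4pif5 and 0.07 in the wild type. The 22 mitochondrial features had medians of -0.00 and -0.07 in the same comparisons and no call. Without replicate A of pif4pif5 at 1 h, the feature of ccb382 passed in pif4pif5, lower at 24 h than in darkness (-0.71) and than at 1 h (-0.85). Of 8 listed root markers, 1 had a feature assigned to it alone, the root hair expansin EXPA7. Its difference between 24 h and darkness was -0.01 in pif4pif5 and -0.26 in the wild type, neither called. Of 6 listed seed reserve genes, 1 had such a feature, the glyoxylate cycle gene ICL, which serves the use of seed oil. ICL fell by 0.67 in pif4pif5 and by 1.11 in the wild type. The part of EXPA7 and ICL in the plastid results was not tested.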

How the data were processed

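The deposited values are log2 signals that the authors obtained with RMA (robust multi-array averaging), per the submitters' processing notes, with a version and background model not given in the sources used here. Per the labels' protocols, 100 ng of total RNA was amplified with a biotin-labelling kit, of a kind that primes on poly(A) tails, and most plastid transcripts carry no stable tail, so these signals need not measure all plastid RNA alike. Values were used as deposited. The number of arrays, 3 in each group, limits the precision.

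For 11 comparisons, limma 3.58.1 (R 4.3.3) estimated 1 mean for each of the 6 groups over 18 arrays and 22746 features, leaving out 64 controls. Empirical Bayes moderation used 5.91 prior beside 12 residual degrees of freedom. The procedure was tested on simulated data. Exact tests of 3 arrays against 3 cannot go below 0.1 and were not used. Genes with values on every array are those called in any comparison (up to 3 a role), or a role's gene of lowest p; others named were chosen after their values were seen. Members, lists and alternatives were chosen with earlier results of these data known. Of the listed nuclear regulators and RNA maturation factors of plastids, 1, AT5G15700, had a feature assigned to it alone. It was not called at 24 h against darkness in either genotype. The plastid gene order comes from assembly TAIR10.1. Replicate letters were not taken as pairs. Figures were drawn with matplotlib 3.10.9.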

Additional observations from a re-analysis of the deposited data

How the results depend on the processing

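Besides the fit given above, the calls were recounted after quantile normalization, with arrays shifted to 1 median, without the dimmest 25% of features (which removed 2 of the 48 genes), with the replicate letter as a replicate block, with an intensity trend and robust prior, with only the compared groups, and without each array in turn. No called difference changed sign. Among the 11 comparisons, the count of called genes was 0 under every setting in the 1 h against darkness, genotype and interaction comparisons. For 24 h against darkness in pif4pif5 it was 1 with the replicate block (psbA) and 0 to 1 when single arrays were left out (psbA, without replicate C of the pif4pif5 dark group). For 24 h against 1 h in pif4pif5, where 2 were called, it was 3 after quantile normalization (with psbF added), 5 with arrays shifted to 1 median (with psaJ, psbE and psbF), 4 with the replicate block (with psaJ and psbF), 1 with the trend and robust prior (ndhD), and 1 with only the compared groups (psbA). Leaving out single arrays gave 0 to 13 there: 0 without replicate A of pif4pif5 at 1 h, 13 without its replicate B, and 1 without replicate C of pif4pif5 at 24 h. For 24 h against darkness in the wild type it was 2 with arrays shifted to 1 median (psbA and psbF), 1 with the replicate block (psbA), and 0 to 4 when single arrays were left out: 4 without replicate C of the wild-type dark group (psbA, psbE, psbF and psbJ) and 1 without replicate A of pif4pif5 at 1 h (psbZ). For 24 h against 1 h in the wild type it was 6 with only the compared groups. The causes were not tested. Same-letter arrays of different groups had correlated deviations of -0.22 to 0.451 (median 0.122, 24 of 45 over 0.1), against a median of -0.0962 for different letters (19 of 90 over 0.1), and 11 of 18 arrays correlated best with their own letter. This is at most a hint from the data that letters are shared. Deviations within a group sum to 0, so the values for same and different letters depend on each other. No chance level was worked out for the 11 of 18. Since not every pair was over 0.1 and the labels name no shared batch, the letters were not treated as pairs.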
